A study of Homo sapiens with 8 samples.

Results

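The LEF/TCF family of transcription factors, their partner beta-catenin and a set of genes that feed back on Wnt signaling were examined in SK-UT-1 cells. A total of 10 of the 60282 listed genes was chosen by name: LEF1, TCF7, TCF7L1, TCF7L2, CTNNB1, AXIN2, RNF43, ZNRF3, LGR4 and RSPO4. They were picked with the differences between these libraries already known, so their own fold changes are given as a description, without p-values. SK-UT-1 is a long-established line grown from a leiomyosarcoma of the human uterus, a malignant tumor of smooth muscle. Cells were exposed for 48 h to TP-472, an inhibitor of the bromodomain proteins BRD9 and BRD7, at 5 µM (n = 4 libraries), or to the vehicle DMSO (n = 4 libraries). No genotype differed between the groups, and a single cell line was used throughout, so the values describe this line at 1 dose and 1 time. The total count was 32574716 to 36634184 per vehicle library and 36246466 to 38545695 per TP-472 library.

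In canonical Wnt signaling, a Wnt ligand bound to a Frizzled receptor and an LRP co-receptor stops the destruction complex, in which AXIN proteins are the scaffold, from marking beta-catenin for degradation. Beta-catenin then enters the nucleus and joins LEF/TCF proteins, which bind DNA by themselves and repress target genes together with TLE proteins as long as beta-catenin is absent. LEF1 and TCF7 are known mostly as activators, TCF7L1 mostly as a repressor, and TCF7L2 as either. AXIN2, RNF43 and ZNRF3 are targets of the pathway that dampen it: AXIN2 rebuilds the destruction complex, while RNF43 and ZNRF3 remove Frizzled receptors from the cell surface. R-spondins such as RSPO4 bind LGR receptors such as LGR4 and clear RNF43 and ZNRF3 from the membrane, which raises the response to Wnt.

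Windows of 250 bases upstream of a RefSeq transcription start (GRCh38.p14) were found for 8 of the 10 genes, all but AXIN2 and ZNRF3, and gave 12 windows since some genes have several starts. The windows of LEF1, the member with the highest log2 fold change, and of TCF7L1 and RSPO4, those with the lowest, are printed 5′ to 3′ on the strand of the gene, with each CG dinucleotide in capitals. LEF1 lies on the minus strand (chr4:108166302-108166551), TCF7L1 on the plus strand (chr2:85133142-85133391) and RSPO4 on the minus strand (chr20:1002312-1002561). The RefSeq start of LEF1 lies within the gene as GENCODE release 29 draws it (chr4:108047545-108168956).
LEF1: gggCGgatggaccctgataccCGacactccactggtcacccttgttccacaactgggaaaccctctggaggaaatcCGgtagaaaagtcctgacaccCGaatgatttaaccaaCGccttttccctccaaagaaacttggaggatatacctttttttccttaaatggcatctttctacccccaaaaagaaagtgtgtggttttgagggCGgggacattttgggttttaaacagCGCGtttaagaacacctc
TCF7L1: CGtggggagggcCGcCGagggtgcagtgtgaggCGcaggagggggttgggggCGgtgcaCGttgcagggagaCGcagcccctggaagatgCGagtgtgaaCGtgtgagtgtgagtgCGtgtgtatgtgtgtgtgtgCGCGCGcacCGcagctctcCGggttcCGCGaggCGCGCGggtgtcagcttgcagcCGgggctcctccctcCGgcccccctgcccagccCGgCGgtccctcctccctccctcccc
RSPO4: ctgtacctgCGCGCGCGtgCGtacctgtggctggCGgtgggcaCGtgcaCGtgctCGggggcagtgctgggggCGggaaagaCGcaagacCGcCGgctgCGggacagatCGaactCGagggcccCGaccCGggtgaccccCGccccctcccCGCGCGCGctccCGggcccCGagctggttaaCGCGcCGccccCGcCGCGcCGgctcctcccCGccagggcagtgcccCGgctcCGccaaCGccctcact
The window of LEF1 held 8 CG dinucleotides and 47.6% G and C, that of TCF7L1 24 and 72.0%, and that of RSPO4 36 and 77.2%. The median over 35116 promoters was 11 CG dinucleotides. A larger share of those promoters had fewer than RSPO4 (95.1%) and TCF7L1 (76.3%) than had fewer than LEF1 (43.7%). The binding motif of LEF/TCF proteins was searched for as CTTTGAT and CTTTGAA on both strands over the 300 bases from 250 before to 50 after each start. Neither was present in the 12 windows of the members, and 6.86% of all promoters held at least 1 of them (2.62% CTTTGAT and 4.43% CTTTGAA). The letters CTTTGA are common to both motifs, and their reverse complements are ATCAAAG and TTCAAAG.

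Vehicle replicate 3 stood apart from the other vehicle libraries. Its median Spearman correlation with them over the 14073 tested genes (more than 1 CPM in at least 4 libraries) was 0.914, against 0.988 to 0.989 for vehicle replicates 1, 2 and 4 and 0.993 to 0.997 for the TP-472 libraries. Its difference from the mean of the other vehicle libraries followed the GC content of the transcripts, with a median log2 difference of −0.79 in the 10% of genes with the lowest GC content and 1.13 in the 10% with the highest. Several members are rich in G and C: RSPO4 transcripts average 63.3%, ZNRF3 59.0%, TCF7 58.8% and AXIN2 56.6%, against a median of 49.8% over the tested genes. LGR4 (44.1%) and CTNNB1 (46.3%) are poorer. Fold changes of the members, and of the pathway genes and markers named as called with all libraries, are therefore given with and without it.

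**Figure D1:**
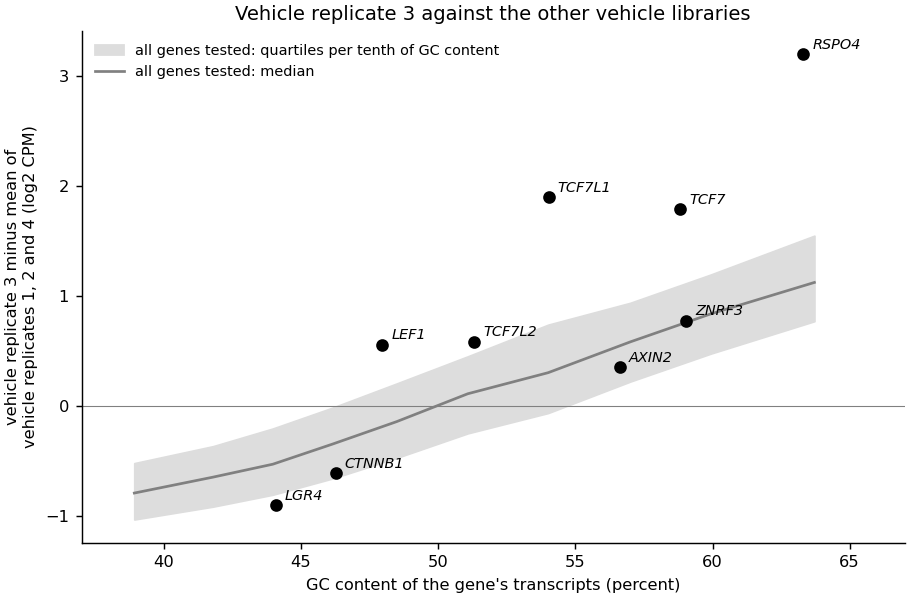
Difference in log2 CPM between vehicle replicate 3 and the mean of vehicle replicates 1, 2 and 4 (vertical axis) against the GC content of transcripts in percent (horizontal axis). The line and band are the median and quartiles of all tested genes in each of 10 equal bins of GC content, and the points are 9 members. RSPO4 (3.20), TCF7L1 (1.90), TCF7 (1.79), TCF7L2 (0.59) and LEF1 (0.56) lie above the band and LGR4 (−0.90) below it, while AXIN2, ZNRF3 and CTNNB1 are within it.

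Among the LEF/TCF factors, LEF1 was higher in TP-472-treated cells, and TCF7L1 and TCF7L2 were lower. TCF7 showed no direction with all libraries (log2 fold change −0.04) and was higher without vehicle replicate 3 (0.64). Among the other members, AXIN2 and RSPO4 were lower, while CTNNB1, ZNRF3 and LGR4 were within a 1.5-fold change. Levels are CPM (counts scaled to a common library total) after TMM scaling, which allows for the size and make-up of each library. A gene was called differentially expressed where edgeR's quasi-likelihood test over all tested genes gave an adjusted p under 0.05 and the change exceeded 1.5-fold, and 26.9% of them were. By the same limits 1 of the 9 members above the filter was higher (12.0% of all tested genes) and 4 were lower (14.9% of all tested genes). In 5 members the groups did not overlap (45.4% of all tested genes), 2 with the TP-472 libraries above (23.8%) and 3 with them below (21.6%). Without vehicle replicate 3, 2 were higher (12.0% of all tested genes) and 4 lower (13.4%). Since the members were chosen from this comparison, nothing follows from these counts. The median log2 fold change of the 9 members was −0.22, against −0.03 over all tested genes. In RNA from whole cultures, fewer cells that express a gene and less of its RNA per cell cannot be told apart.

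**Figure D2:**
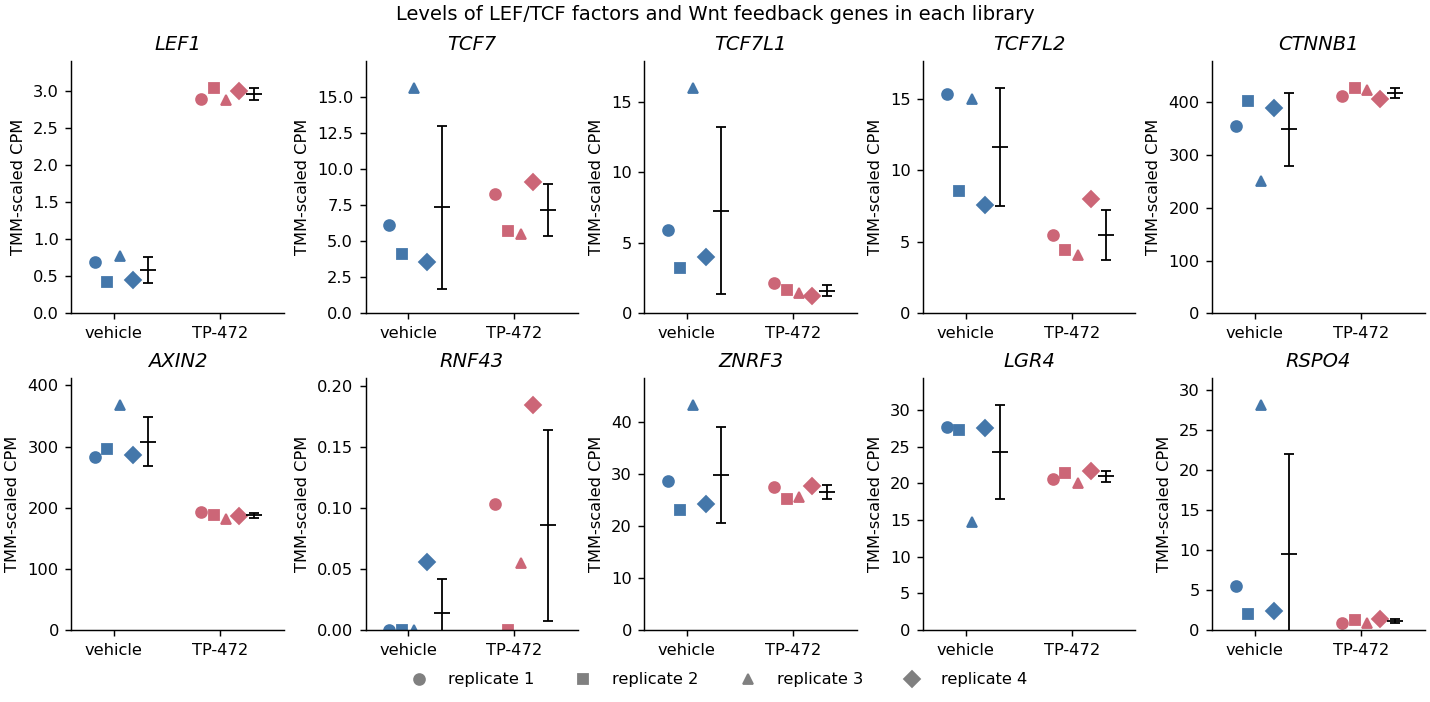
TMM-scaled CPM (vertical axes, each from 0) of the 10 genes in each library, with vehicle libraries in blue and TP-472 libraries in red, a symbol per replicate number, and the mean ± SD (n = 4) in black, cut at 0. LEF1 is at 2.89 to 3.04 in the TP-472 libraries and 0.431 to 0.782 in the vehicle libraries, and vehicle replicate 3 (triangle) is the highest vehicle library for LEF1, TCF7, TCF7L1, AXIN2, ZNRF3 and RSPO4 and the lowest for CTNNB1 and LGR4.

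LEF1 (ENSG00000138795.10) was measured at 0.693, 0.431, 0.782 and 0.450 CPM in vehicle replicates 1 to 4 and at 2.90, 3.04, 2.89 and 3.01 CPM in TP-472 replicates 1 to 4. All TP-472 libraries lay close together, with a coefficient of variation of 2.69%, and far above every vehicle library. The log2 fold change was 2.32 ± 0.23 (SE), or 5.00-fold, and 2.49 ± 0.20 (SE) without vehicle replicate 3. These levels rest on few reads: 15.0 to 27.0 estimated counts per vehicle library and 104 to 114 per TP-472 library. LEF1 passed the filter through the TP-472 libraries alone, so a difference was built into its passing. It is also among the genes the study listed as hubs of its network on these libraries.

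TCF7 (ENSG00000081059.20; chr5:134114711-134151865), a factor best known from T lymphocytes, stood at 6.10, 4.11, 15.6 and 3.54 CPM in the vehicle libraries and 8.26, 5.72, 5.52 and 9.11 CPM in the TP-472 libraries. The groups overlapped, and the highest value was that of vehicle replicate 3. With all libraries the log2 fold change was −0.04 ± 0.45 (SE). Without vehicle replicate 3 it was 0.64 ± 0.24 (SE), which passed the limits of differential expression, with vehicle replicate 1 still above TP-472 replicates 2 and 3.

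TCF7L1 (ENSG00000152284.5; chr2:85133410-85310388) was at 5.90, 3.25, 16.0 and 3.96 CPM in vehicle and 2.17, 1.63, 1.41 and 1.27 CPM with TP-472. No TP-472 value reached the lowest vehicle value. The log2 fold change of −2.16 ± 0.50 (SE) moved to −1.43 ± 0.25 (SE) without vehicle replicate 3, whose level was 3.65 times the mean of the other vehicle libraries.

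TCF7L2 (ENSG00000148737.17; chr10:112950250-113167678) was at 15.3, 8.56, 15.0 and 7.56 CPM in vehicle and 5.49, 4.43, 4.11 and 7.98 CPM with TP-472. Vehicle replicates 1 and 3 were high, and TP-472 replicate 4 exceeded vehicle replicate 4, so the groups overlapped. Its log2 fold change was −1.08 ± 0.30 (SE) and −0.93 ± 0.28 (SE) without vehicle replicate 3. It missed the limits without vehicle replicate 1 (−0.92) and also without TP-472 replicate 1, 2 or 3.

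The factors were also compared with each other, after division of the CPM by the length of the longest coding transcript (CPM per kb). Of the summed level of the 4 factors, LEF1 made up 2.48% ± 0.596 in vehicle and 17.9% ± 3.40 with TP-472, as mean ± SD over 4 libraries each. The share of TCF7 was 27.3% ± 4.54 in vehicle and 43.7% ± 2.76 with TP-472. That of TCF7L1 was 29.8% ± 6.49 and 11.5% ± 2.95, and that of TCF7L2 40.5% ± 9.90 and 26.9% ± 3.67. For LEF1, TCF7 and TCF7L1 no TP-472 library overlapped a vehicle library, and vehicle replicate 3 had a smaller share of TCF7L2 (26.1%) than TP-472 replicate 4 (32.4%). With the length of all merged exons in place of the longest transcript, LEF1 made up 2.89% ± 0.660 in vehicle and 23.1% ± 3.94 with TP-472. On that scale TCF7 made up 16.3% ± 3.04 and 28.8% ± 2.36, TCF7L1 36.2% ± 8.42 and 15.3% ± 3.84, and TCF7L2 44.6% ± 10.4 and 32.9% ± 4.97. The order of TCF7 and TCF7L2 with TP-472 thus turned with the length used. The summed level was 7.63 ± 4.47 CPM per kb in vehicle, where vehicle replicate 3 reached 13.9, and 4.88 ± 0.949 CPM per kb with TP-472 (SD, n = 4 each). The level of TCF7 itself was 2.20 ± 1.69 in vehicle and 2.15 ± 0.542 CPM per kb with TP-472. Vehicle replicate 3 was at 4.69 CPM per kb, and vehicle replicates 1, 2 and 4 were at 1.83, 1.23 and 1.06. The TP-472 libraries were at 2.48, 1.72, 1.66 and 2.74. Whether the larger share of TCF7 went with a higher level thus depended on vehicle replicate 3.

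**Figure D3:**
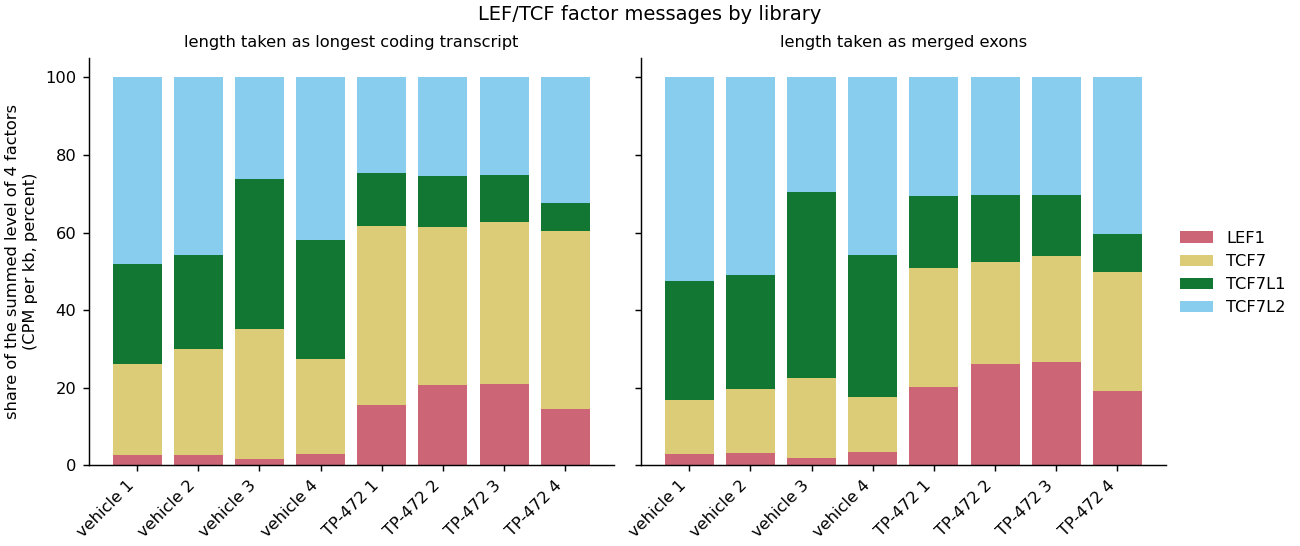
Share of LEF1, TCF7, TCF7L1 and TCF7L2 in the summed level of the 4 factors (vertical axis, percent of CPM per kb) in each library, for 2 definitions of gene length. LEF1 makes up 1.62% to 2.97% in vehicle libraries and 14.5% to 21.0% in TP-472 libraries when the longest coding transcript is used.

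CTNNB1 (ENSG00000168036.18; chr3:41194741-41260096), the gene of beta-catenin, was at 354, 401, 249.7 and 388 CPM in vehicle and 412, 426, 422 and 405 CPM with TP-472. All TP-472 values exceeded the highest vehicle value, by little. The log2 fold change of 0.26 ± 0.15 (SE) became 0.13 ± 0.07 (SE) without vehicle replicate 3, the lowest library, and did not pass the limits in either case.

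AXIN2 (ENSG00000168646.13; chr17:65528563-65561647), the gene most often read as a gauge of the pathway, was abundant in these cells. It was at 283, 296, 368 and 286 CPM in vehicle and 193, 188, 182 and 186 CPM in TP-472-treated cells. The groups did not overlap, and the TP-472 libraries varied little (coefficient of variation 2.50%). Its log2 fold change was −0.72 ± 0.11 (SE), or 1.65-fold lower, and −0.62 ± 0.05 (SE) without vehicle replicate 3. When the trend of each library with GC content was removed, it was −0.52 and no longer over 1.5-fold.

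RNF43 (ENSG00000108375.12; chr17:58352500-58417595) was barely detected. It had 0, 0, 0 and 2 estimated counts in vehicle and 4.33, 0, 1.62 and 6.52 with TP-472, too few for a comparison at this depth. ZNRF3 (ENSG00000183579.16; chr22:28883592-29057487), its relative, was expressed at 28.6, 23.1, 43.3 and 24.3 CPM in vehicle and 27.5, 25.1, 25.6 and 27.7 CPM with TP-472. Vehicle replicate 3 was the highest, and the TP-472 values lay within the range of the other vehicle libraries. The log2 fold change was −0.17 ± 0.20 (SE), or 0.07 ± 0.09 (SE) without that library.

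LGR4 (ENSG00000205213.14; chr11:27365961-27472775) was at 27.7, 27.2, 14.7 and 27.5 CPM in vehicle and 20.6, 21.4, 20.1 and 21.6 CPM with TP-472. The groups overlapped only through vehicle replicate 3, the lowest library of all. The log2 fold change was −0.22 ± 0.20 (SE) with all libraries and −0.39 ± 0.06 (SE) without it, under the 1.5-fold limit.

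RSPO4 (ENSG00000101282.9; chr20:958452-1002264) was at 5.46, 2.07, 28.1 and 2.42 CPM in vehicle and 0.880, 1.27, 0.888 and 1.43 CPM with TP-472. No TP-472 library reached a vehicle library, but vehicle replicate 3 was 8.48 times the mean of the other vehicle libraries. The log2 fold change was −3.09 ± 0.84 (SE) with it and −1.57 ± 0.35 (SE) without it. RSPO4 missed the limits by limma-voom and without any 1 of the TP-472 libraries. It passed the filter through the vehicle libraries, since 2 of the TP-472 libraries exceeded 1 CPM.

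**Figure D4:**
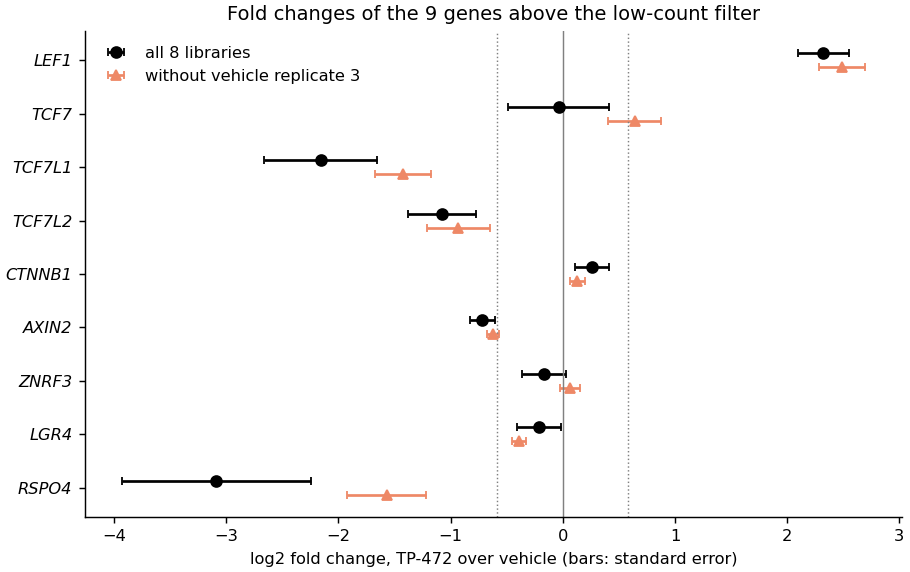
Log2 fold change of TP-472 over vehicle with its standard error (horizontal axis) for the 9 tested members, with all 8 libraries (circles) and without vehicle replicate 3 (triangles). Dotted lines mark a 1.5-fold change. LEF1 (2.32 and 2.49), TCF7L2 (−1.08 and −0.93) and AXIN2 (−0.72 and −0.62) differ little between the fits, while RSPO4 goes from −3.09 to −1.57, TCF7L1 from −2.16 to −1.43 and TCF7 from −0.04 to 0.64.

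Per kb of the longest coding transcript, the levels in vehicle-treated cells ran in the order CTNNB1 (73.5 ± 14.5), AXIN2 (72.4 ± 9.49), LGR4 (4.67 ± 1.23), ZNRF3 (4.35 ± 1.35), RSPO4 (3.51 ± 4.61), TCF7L2 (2.81 ± 1.00), TCF7L1 (2.45 ± 1.99), TCF7 (2.20 ± 1.69), LEF1 (0.169 ± 0.0504) and RNF43 (0.00252 ± 0.00504) CPM per kb (SD, n = 4). Only the steps from AXIN2 to LGR4, from TCF7 to LEF1 and from LEF1 to RNF43 exceeded the spread between libraries. In TP-472-treated cells AXIN2 (44.0 ± 1.10 CPM per kb) stood below CTNNB1 by more than the spread. LGR4 (4.02 ± 0.143) and ZNRF3 (3.87 ± 0.195) did not differ beyond it, and TCF7 (2.15 ± 0.542) and TCF7L2 (1.33 ± 0.424) followed. LEF1 (0.851 ± 0.0229 CPM per kb) stood above TCF7L1 (0.547 ± 0.134) and RSPO4 (0.412 ± 0.102). On the scale of merged exons several orders turned. AXIN2 (59.0 CPM per kb) stood above CTNNB1 (29.2) and ZNRF3 (4.27) above LGR4 (3.83) in vehicle. With TP-472, AXIN2 (35.8) and CTNNB1 (34.9) were close, with AXIN2 above, and ZNRF3 (3.80) stood above LGR4 (3.30), TCF7L2 (0.816) above TCF7 (0.711) and RSPO4 (0.412) above TCF7L1 (0.368).

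Genes whose log2 CPM followed a member most closely were picked among those with a mean of at least 5 CPM. For LEF1 they were EFTUD2, ZNF317, TWNK, CSRNP1 and TPBG (Pearson r from 0.993 to 0.996), for AXIN2 PTPRU, THRAP3, ZNF395, HDAC5 and CCNL2 (0.996 to 0.999), and for RSPO4 VAV2, CROCCP3, KIAA1522, FGD1 and DYRK1B (0.995 to 0.996). These correlations over 8 libraries share the difference between the groups, and those of RSPO4 also share vehicle replicate 3. The limit of 5 CPM left out LEF1, TCF7L1 and RNF43 as candidates.

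A further 136 genes of the Wnt pathway were listed by their role, and 92 of them passed the filter. By the fit of all tested genes, 6 rose (12.0% of all tested genes did) and 19 fell (14.9%), and 67 did not pass, with a median log2 fold change of −0.23, against −0.03 over all tested genes. Without vehicle replicate 3, 10 rose and 15 fell, with a median of −0.07, and 21 of the 25 genes were called in both fits. Of all tested genes, 25.5% were differentially expressed without that library, 12.0% higher and 13.4% lower. With the trend of each library with GC content removed, 12 rose and 18 fell, and of all tested genes 13.3% rose and 15.1% fell (28.4% in all).

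Of the 19 Wnt ligands, 4 were expressed above the filter. WNT2B fell from 3.10 ± 0.124 to 1.73 ± 0.298 CPM (mean ± SD of 4 libraries, as for the genes that follow). Its log2 fold change was −0.84 ± 0.17 (SE; adjusted p = 0.00637, edgeR, and −0.86 without vehicle replicate 3). No other ligand passed with all libraries or without vehicle replicate 3. WNT10B, named after its values were seen, was called higher with the GC trend removed (log2 fold change 0.80). It was at 0.47 in the fit of all libraries and at 0.50 without vehicle replicate 3. WNT5B, a ligand of mostly beta-catenin-independent signaling and the one with the highest CPM (over all libraries and not per length, here and for the lists that follow), was at 30.7 ± 5.47 and 25.2 ± 1.34 CPM (adjusted p = 0.127, edgeR). The median log2 fold change of the ligands was 0.03. None of the other R-spondins and LGR receptors (RSPO1, RSPO2, RSPO3, LGR5 and LGR6) passed the filter. WLS, which carries Wnt proteins to the cell surface, was at 33.6 ± 0.773 and 38.1 ± 1.49 CPM (SD, n = 4 each; adjusted p = 0.141, edgeR), and neither it nor PORCN passed (median log2 fold change 0.01).

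Of the receptors and co-receptors, 13 of 15 were tested, 1 rose and 3 fell (median log2 fold change 0.05). Without vehicle replicate 3, 2 rose and 2 fell, and with the GC trend removed 3 rose and 4 fell. FZD9, named after its values were seen, was called higher in both of these fits (0.65 and 0.83). With all libraries its log2 fold change was 0.37, with groups that overlapped, and it was not called. LRP5, a co-receptor of canonical signaling, fell from 56.1 ± 27.3 to 22.1 ± 1.71 CPM (log2 fold change −1.35 ± 0.29, adjusted p = 0.00737, edgeR, and −0.95 without vehicle replicate 3). The Frizzled receptor gene FZD2 fell from 14.4 ± 4.23 to 6.03 ± 0.748 CPM (−1.26 ± 0.21, adjusted p = 0.00242, edgeR, and −1.03 without vehicle replicate 3), whereas FZD3 rose from 5.11 ± 1.65 to 9.81 ± 0.598 CPM (0.94 ± 0.24, adjusted p = 0.0157, edgeR, and 0.74 without vehicle replicate 3). ROR2, a receptor for WNT5A, fell by 0.72 on the log2 scale (adjusted p = 0.0401, edgeR) and was within 1.5-fold without vehicle replicate 3 (−0.41). RYK, the receptor gene with the highest CPM, was at 106 ± 29.6 and 136 ± 2.61 CPM (adjusted p = 0.191, edgeR).

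Among the antagonists, 7 of 17 were tested, 1 rose and 2 fell (median log2 fold change −0.24). DKK1, a secreted inhibitor that binds LRP co-receptors and is itself a target of the pathway, was at 9.34, 12.0, 8.13 and 12.7 CPM in vehicle and 29.4, 28.98, 31.9 and 28.9 CPM with TP-472. All TP-472 libraries were above all vehicle libraries, with a 2.82-fold difference (SE of the log2 fold change 0.16; adjusted p = 0.000298, edgeR) and a log2 fold change of 1.39 without vehicle replicate 3. KREMEN1, a receptor for DKK proteins, fell from 24.4 ± 10.3 to 9.09 ± 0.673 CPM (SD, n = 4 each; −1.43 ± 0.26, adjusted p = 0.00395, edgeR, and −1.11 without vehicle replicate 3). DKK2, named after its values were seen, fell by 0.66 on the log2 scale (−0.81 without vehicle replicate 3). Its groups overlapped only through that library. SFRP1, the antagonist with the highest CPM, was at 52.1 ± 5.00 and 52.3 ± 1.48 CPM.

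Of the genes of the Dishevelled proteins and the destruction complex, 21 of 22 were tested, 1 fell and none rose (median log2 fold change −0.24, and −0.06 without vehicle replicate 3). None passed without vehicle replicate 3 or with the GC trend removed. DVL2, which relays the signal from Frizzled receptors, fell by 0.66 on the log2 scale (adjusted p = 0.00989, edgeR) and was within 1.5-fold without vehicle replicate 3 (−0.52). CSNK1A1, the kinase that primes beta-catenin for degradation and the gene of the list with the highest CPM, was at 347 ± 88.7 and 470.4 ± 7.37 CPM (SD, n = 4 each; adjusted p = 0.0913, edgeR).

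Of 20 nuclear co-factors, all tested, 1 rose and 7 fell (median log2 fold change −0.53, and −0.33 without vehicle replicate 3). Without that library 1 rose and 6 fell. TLE1, a co-repressor of TCF proteins, rose from 4.16 ± 1.49 to 7.96 ± 0.445 CPM (0.94 ± 0.23, adjusted p = 0.0129, edgeR, and 1.22 without vehicle replicate 3), while its relative TLE2 fell from 14.9 ± 7.99 to 5.28 ± 0.664 CPM (−1.49 ± 0.33, adjusted p = 0.00884, edgeR, and −1.06 without vehicle replicate 3). BCL9, which links beta-catenin to the co-activator PYGO, fell from 26.3 ± 15.9 to 10.5 ± 2.20 CPM (−1.33 ± 0.38, adjusted p = 0.0248, edgeR, and −0.85 without vehicle replicate 3). TBL1X, a component of co-repressor complexes that also binds beta-catenin, fell from 61.5 ± 25.0 to 25.6 ± 5.79 CPM (−1.27 ± 0.29, adjusted p = 0.0101, edgeR, and −1.01 without vehicle replicate 3). BCL9L, named after its values were seen, had the lowest log2 fold change of the list (−1.99 ± 0.67, adjusted p = 0.0449, edgeR, and −0.86 without vehicle replicate 3), with groups that overlapped. PARP1, the gene of the list with the highest CPM over both groups together, was at 296 ± 8.22 and 324 ± 7.95 CPM (SD, n = 4 each; adjusted p = 0.265, edgeR).

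Of 8 cadherins and catenins, 6 were tested and 3 fell (median log2 fold change −0.43), and 2 fell without vehicle replicate 3 or with the GC trend removed. JUP, the gene of plakoglobin, the nearest relative of beta-catenin, was at 35.9, 26.5, 78.3 and 25.0 CPM in vehicle and 12.8, 12.0, 12.0 and 11.2 CPM with TP-472. The groups were well apart, with a log2 fold change of −1.79 ± 0.35 (SE; adjusted p = 0.00506, edgeR) and −1.28 without vehicle replicate 3. CDH3 (P-cadherin) fell from 18.2 ± 1.06 to 11.9 ± 0.604 CPM (−0.62 ± 0.11, adjusted p = 0.00296, edgeR) and lay just within 1.5-fold without vehicle replicate 3 (−0.58). CDH11, named after its values were seen, fell by 0.77 on the log2 scale (−0.89 without vehicle replicate 3). Its groups overlapped only through that library, and it passed the filter through the vehicle libraries. CTNNA1 (alpha-catenin) was at 326 ± 12.0 and 323 ± 12.7 CPM.

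Further genes often named as targets of beta-catenin and TCF proteins went both ways: of 27, 19 were tested, 3 rose and 2 fell (median log2 fold change 0.14). Without vehicle replicate 3, and likewise with the GC trend removed, 6 rose and 2 fell. CCND1, the gene of a D-type cyclin, was at 115, 111, 165 and 117 CPM in vehicle and 261, 253, 249 and 282 CPM with TP-472. The lowest TP-472 value exceeded the highest vehicle value (log2 fold change 1.04 ± 0.14, adjusted p = 0.00106, edgeR, and 1.19 without vehicle replicate 3). FOSL1, an AP-1 factor, rose from 9.90 ± 6.75 to 28.4 ± 3.01 CPM (1.52 ± 0.39, adjusted p = 0.0158, edgeR, and 2.11 without vehicle replicate 3). PLAUR, the urokinase receptor, rose from 39.7 ± 6.28 to 72.0 ± 3.47 CPM (0.86 ± 0.13, adjusted p = 0.00148, edgeR, and 0.96 without vehicle replicate 3). TWIST1, a mesenchymal transcription factor, fell from 151 ± 18.1 to 62.6 ± 2.02 CPM (−1.27 ± 0.11, adjusted p = 0.000115, edgeR, and −1.18 without vehicle replicate 3). TNFRSF19, a receptor of the TNF family, fell from 478 ± 43.3 to 287 ± 12.1 CPM (SD, n = 4 each; −0.74 ± 0.11, adjusted p = 0.00125, edgeR, and −0.79 without vehicle replicate 3).

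**Figure D5:**
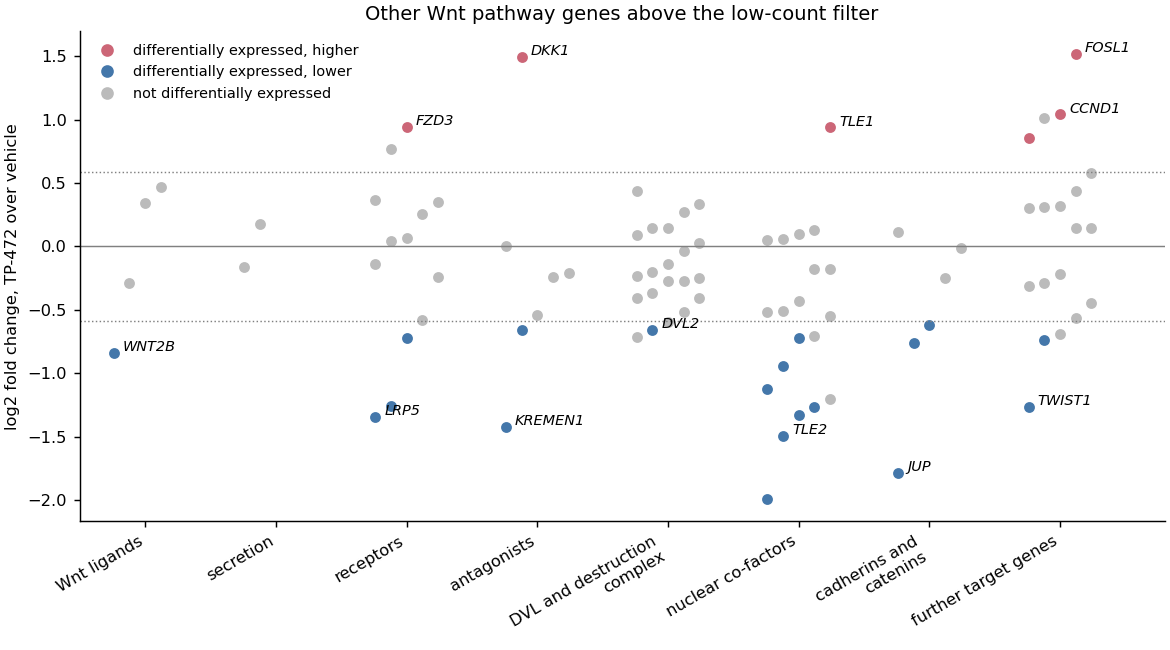
Log2 fold change of TP-472 over vehicle (vertical axis) of the 92 tested genes of the pathway outside the members, by role (horizontal axis). Red and blue points are differentially expressed (adjusted p under 0.05 in edgeR's quasi-likelihood test and over 1.5-fold, dotted lines) and grey points are not. The nuclear co-factors have 7 blue points and 1 red, and of the red points DKK1, FOSL1 and CCND1 lie above 1.

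Markers of cell types were read beside these genes. Of 10 smooth muscle genes 7 passed the filter, and TAGLN, DES and LMOD1 fell (log2 fold changes −0.67, −2.36 and −1.84, and −0.64, −2.40 and −1.68 without vehicle replicate 3). DES and LMOD1 passed the filter through the vehicle libraries alone, so a difference was built into their passing. TAGLN was within 1.5-fold with the GC trend removed (−0.43), and ACTA2 was also called lower without vehicle replicate 3 (−0.59, against −0.55 with all libraries). The summed level of the list, led by CALD1, was 439 to 524 CPM in vehicle and 371 to 379.8 CPM with TP-472. MYH11, the smooth muscle myosin, was at 0 to 0.0281 CPM in vehicle and 0.194 to 0.264 CPM with TP-472, and DES (desmin) was at 3.01 to 3.49 CPM in vehicle and 0.396 to 0.777 CPM with TP-472. The T lymphocyte genes CD3D, CD3E and CD3G, of the cells for which LEF1 and TCF7 are best known, had no count in any library, and the summed level of the 7 genes, led by CD8A, was 0.422 to 0.984 CPM in vehicle and 0.544 to 0.793 CPM with TP-472. Of 6 fibroblast genes 4 passed and COL1A1, COL1A2 and COL3A1 fell (log2 fold changes −2.35, −2.58 and −1.62, and −1.46, −2.50 and −1.64 without vehicle replicate 3), with a summed level, led over all libraries by COL1A2, of 1010 to 1142 CPM in vehicle and 235 to 259.7 CPM with TP-472, and DCN and LUM were at or near 0 in all libraries. Of 7 epithelial genes 3 passed, KRT18 rose from 7.39 ± 0.871 to 15.6 ± 1.47 CPM (adjusted p = 0.000726, edgeR, log2 fold change 1.08, and 1.14 without vehicle replicate 3) and KRT19 fell from 8.88 ± 1.78 to 4.93 ± 1.15 CPM (adjusted p = 0.0151, edgeR, log2 fold change −0.85, and −0.71 without vehicle replicate 3). With the GC trend removed KRT19 was within 1.5-fold (−0.52) and KRT8 was also called higher (0.74). KRT8 was not called with all libraries (0.52) or without vehicle replicate 3 (0.56). The epithelial list, led over all libraries by KRT18, summed to 18.4 to 24.1 CPM in vehicle and 21.2 to 28.0 CPM with TP-472, and the 5 endothelial genes, led by VWF, to 0.0831 to 0.144 and 0.414 to 0.687 CPM. Their part in the differences of the Wnt genes was not tested.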

How the data were processed

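Strand-specific RNA libraries were sequenced, 4 from the vehicle and 4 from the TP-472 treatment of SK-UT-1. The authors ran salmon (1.4.0) on the transcripts of GENCODE release 34 and used tximport to reach gene level, and they deposited estimated counts per gene without scaling. These were rounded to whole numbers, and a gene entered the tests if its CPM exceeded 1 in 4 or more libraries. Libraries were scaled by TMM and compared by quasi-likelihood in edgeR 4.0.16 under R 4.3.3, with Benjamini-Hochberg adjustment over the 14073 genes tested. The limits on adjusted p and fold change are those of the paper, which names no test for these data. The standard error of a log2 fold change is its size divided by the square root of F. The descriptions give no batch. The paper speaks of biological replicates for its experiments in general, and the descriptions of these libraries do not say whether each came from its own culture, so p-values measure the spread between these libraries. The lowest mean chi-square between libraries was 12.8, so none was a copy of another.

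The members, and the lists of pathway and marker genes, were chosen with earlier results of these data known. Named genes are the members, up to 3 called genes per list and direction with the largest change and no overlap between groups, the most abundant tested gene of each list, and the 5 genes most like LEF1, AXIN2 and RSPO4. Positions, lengths and GC content come from GENCODE release 29 on GRCh38, the authors' build in a later release, matched on the unversioned identifier, which gave a GC content to 99.3% of the tested genes. Promoter windows are RefSeq's (GRCh38.p14). Alternatives were scaling by RLE or by total count, no filter or one of 5 CPM, DESeq2 1.42.0, limma-voom (limma 3.58.1), the replicate number as a block, each library left out, and, chosen after seeing the data, removal of each library's GC trend (a natural spline on log2 CPM). Counts were also simulated for 14073 genes, of which 200 were changed by 1.5 on the log2 scale. Of these, edgeR recovered 182, edgeR with the block 170, limma-voom 175 and DESeq2 190. They called 10, 10, 5 and 54 unchanged genes. The simulated libraries held no trend with GC content and no library set apart like vehicle replicate 3, so they cannot show how the fits handle either.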

Additional observations from a re-analysis of the deposited data

Results flagged for a closer look

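The values of each group of 4 libraries were checked for a library far from the other 3 with Dixon's test, over the 10 members and the 26 named genes of the pathway lists. Of 72 groups, 11 held such a library, where chance gives about 1 in 20 if groups are independent. These groups share the same libraries, and the genes were picked with these values known, so nothing follows from a comparison with that rate. Vehicle replicate 3 was the library far from the others in 8 of the 11 groups. Among the members it was high for AXIN2 (368 CPM, others 283 to 296) and RSPO4 (28.1 CPM, others 2.07 to 5.46) and low for LGR4 (14.7 CPM, others 27.2 to 27.7). It was also high for WNT5B (38.9 CPM, others 27.4 to 28.9), FZD2 (20.7 CPM, others 11.9 to 12.9), ROR2 (38.0 CPM, others 18.3 to 20.7), TLE1 (6.37 CPM, others 3.22 to 3.65) and CCND1 (165 CPM, others 111 to 117). RNF43 had 0.0562 CPM in vehicle replicate 4, from 2 counts, and 0 in the others. DKK1 was at 31.9 CPM in TP-472 replicate 3 (others 28.9 to 29.4) and PLAUR at 66.8 CPM in TP-472 replicate 1 (others 73.5 to 74.1).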

How the results depend on the processing

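Over all genes tested and over the other Wnt pathway genes, the number of differentially expressed genes stayed within 1.5 times its value under every alternative tried (2672 to 5090 against 3789, and 17 to 36 against 25). The share of higher genes among the pathway genes called was 6 of 25, but 12 of 30 with the GC trend removed, 10 of 25 without vehicle replicate 3 and 15 of 36 with no filter. Of the 9 members, 5 were called, and of all 14073 tested genes 3789 were (26.9%). Under a filter of more than 5 CPM, which left out LEF1, TCF7L1 and RSPO4, 2 of 6 members and 2672 of all 11067 genes were called. With any 1 library left out, 3 to 6 members were called. The count was lowest without TP-472 replicate 1, 2 or 3, where 2852, 2734 and 2690 of all 14073 tested genes were called. It was highest without vehicle replicate 3 (3583 of all tested genes), which added TCF7. None of the 5 changed sign under any alternative, while TCF7 went from −0.04 to 0.64 without vehicle replicate 3. LEF1 and TCF7L1 were called wherever they were tested, which adds no support, since the members were chosen from this comparison. RSPO4 was not called by limma-voom or without any single TP-472 library, and AXIN2 was not with the GC trend removed (−0.52). Low counts limit LEF1 (15.0 to 27.0 per vehicle library) and kept RNF43 from being tested wherever a filter was used. With no filter, 5 of 10 members and 5090 of all 33192 genes were called, and RNF43 was not.

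The replicate number as a block called 3055 of all genes, 3 members (not TCF7L2 or RSPO4) and 22 other pathway genes (without ROR2, DKK2, BCL9, BCL9L and CDH11, and with FZD6 and ROR1). The libraries share only a number: deviations of libraries with the same number correlated between −0.18 and 0.12, and no vehicle library correlated best with the TP-472 library of its own number.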

Other observations

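With the GC trend of each library removed, vehicle replicate 3 still differed from the other vehicle libraries by 2.10 on the log2 scale for RSPO4, 1.55 for TCF7L1, 1.05 for TCF7 and 0.73 for LEF1, and by 0.02 for ZNRF3. The log2 fold changes in that fit were −2.27 for RSPO4, −2.00 for TCF7L1, 0.41 for TCF7, 2.21 for LEF1 and 0.17 for ZNRF3. EPHB2, EPHB3 and CDX2, further target genes named after their values were seen, were not called with all libraries (log2 fold changes 0.43, 1.01 and 0.58) and were called higher both without vehicle replicate 3 (0.67, 1.52 and 1.04) and with the GC trend removed (0.74, 1.52 and 0.92, edgeR). CDX2 passed the filter through the TP-472 libraries, since the vehicle libraries other than replicate 3 were at 0.64 to 0.78 CPM.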
